A study of Mus musculus with 6 samples.

Results

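Proteoglycans are proteins that carry long sulfated sugar chains, the glycosaminoglycans, at the cell surface or in the matrix. The genes described here encode membrane proteoglycan cores (glypicans and syndecans), versican, the enzymes that build and sulfate heparan sulfate and chondroitin or dermatan sulfate, other sulfotransferases of the Chst family, and the hyaluronan synthases. They were taken by a rule on gene symbols alone, itself written with earlier results of these data known, and make up 67 of the 53819 symbols in the count table. The data are mRNA sequencing libraries of 3D gastruloids, which model the early embryo and were grown here from E14, a mouse ESC (embryonic stem cell) line. The 3 untreated libraries were set against 3 libraries of aggregates given budesonide, a synthetic glucocorticoid, for 80 h. Every library is from the same ESC line with no further allele named. The labels name no vehicle and no age at collection for the untreated aggregates, and do not call the replicates separate cultures. The p-values therefore reflect only how far these libraries scatter, and that scatter may be technical.

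Heparan sulfate binds FGF, WNT, BMP and other growth factors, and the pattern of N-, 2-O-, 3-O- and 6-O-sulfate groups along the chain decides which proteins bind. A chain starts with a short sugar linkage on the core protein, is lengthened by polymerases, and is then modified in the Golgi by deacetylase-sulfotransferases, an epimerase and O-sulfotransferases. Embryonic stem cells need heparan sulfate to respond to FGF and leave the pluripotent state. Hyaluronan is made without a core protein at the plasma membrane and, with versican, forms a hydrated matrix around migrating mesoderm.

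With budesonide the cores and the sulfation enzymes shifted in both directions. Syndecan 4 (Sdc4) rose 2.23-fold and glypican 4 (Gpc4) 1.68-fold, while Gpc6 fell 3.80-fold and Gpc1, Gpc3, Sdc1 and Sdc3 each fell between 2.01-fold and 2.26-fold. The sulfotransferase gene Chst15 fell 4.70-fold and the hyaluronan synthase gene Has2 4.05-fold. Of the paired 6-O-sulfotransferases, Hs6st1 rose and Hs6st2 fell.

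Of the 67 members, 56 had enough reads for a test. By the edgeR quasi-likelihood test at an adjusted p under 0.05, 7 rose, 19 fell and 30 did not pass. Over all 17155 tested genes 15.2% rose and 13.5% fell, 28.7% in all, so the 7 members that rose are near the background share (12.5% of those tested), and the 19 that fell are 33.9%. With no scaling factors 5 members rose and 21 fell, where all genes gave 2003 rises and 3186 falls. Past a 2-fold change, 2 members rose and 10 fell, against 1.64% and 3.46% of all tested genes. Of the 2 that rose, Hs3st5 entered the test through its budesonide libraries and its groups overlapped, which leaves Sdc4. Of the 10 that fell, Sdc3 and Chst7 entered the test through their untreated libraries, and their groups did not overlap. Gpc1, Gpc3 and Hs6st2 lay at the cut, at log2 fold changes of -1.0069, -1.0045 and -1.0024. Their smallest falls over the alternative fits were -0.949, -0.867 and -0.932, so the number past 2-fold depends on the fit. All 3 budesonide libraries lay above all untreated ones for 10 tested members and below them for 21, and each of these directions held for 19.8% of all tested genes. The median log2 fold change was -0.21 for the tested members and -0.02 for all tested genes. Without a set test these shares describe the members and do not set them apart.

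**Figure D1:**
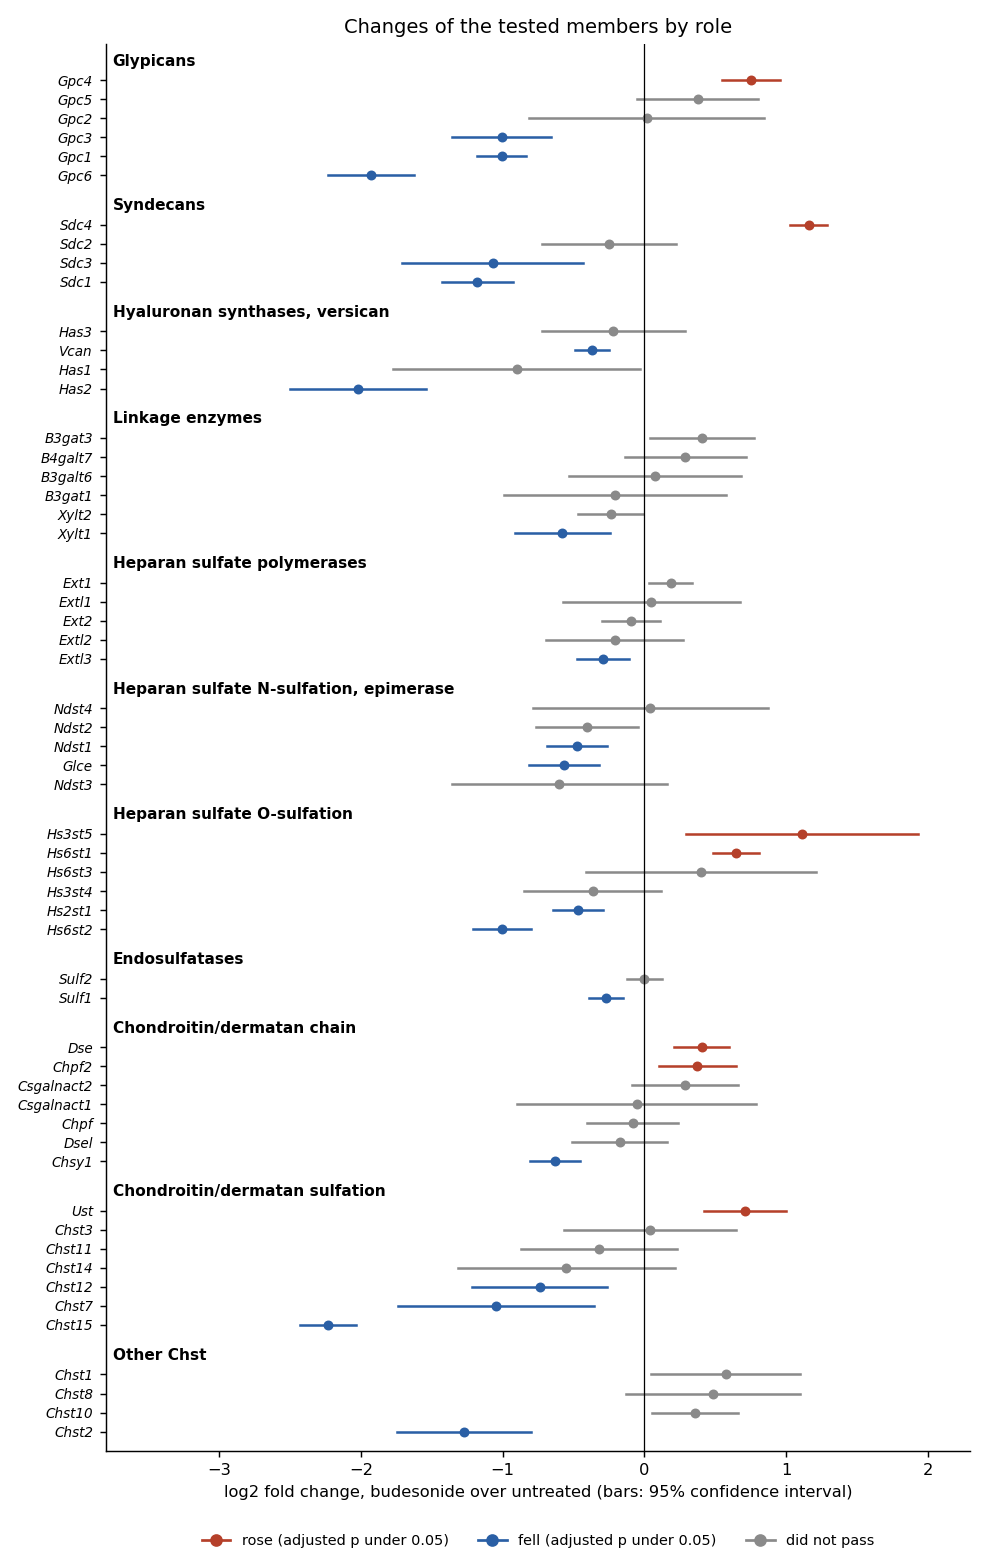
Log2 fold changes (budesonide over untreated, horizontal axis) of the 56 tested members, grouped by role. Points are edgeR estimates, bars are 95% confidence intervals, and colour gives the call. The 7 risen members are spread over 5 of the 11 groups, and Chst15, Has2 and Gpc6 lie farthest to the left.

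The libraries held between 5666168 and 7476862 counted reads, of which 0.163% to 0.167% fell on the members without budesonide and 0.143% to 0.145% with it. Levels are given as CPM (a read count relative to its TMM-scaled library total), where 3 reads make 0.422 to 0.552 CPM. The label of an ESC aggregate matched its markers: all 8 pluripotency markers were expressed, 7 of them higher with budesonide. All 8 tested markers of the posterior epiblast and tailbud fell, and their summed level went from between 296.5 and 319.1 CPM to between 11.98 and 16.2 CPM. Other marker lists moved too. The summed extraembryonic endoderm markers went from between 294.2 and 319.2 CPM to between 132 and 141.7 CPM. Of 10 tested, 3 fell (Foxa2, Lamb1 and Col4a1). Lamb1, at 192.6 ± 12.3 and 84.05 ± 5.77 CPM, and Col4a1, at 59.5 ± 3.90 and 17.3 ± 1.52 CPM, held most of the summed level. The defining factors of this lineage, Gata4, Gata6 and Sox17, averaged at most 2.01 CPM in either group. Neural progenitor markers went from between 157 and 170.4 CPM to between 73.2 and 76.8 CPM, with 2 rising (Pax6 and Tubb3) and 3 falling (Nes, Irx3 and Dcx) of 6 tested. Most of that sum was Nes, at 130.9 ± 5.21 and 36.04 ± 1.96 CPM, and the other 8 neural markers together were not lower with budesonide. Fibroblast markers went from between 24.98 and 27.98 CPM to between 17.8 and 20.6 CPM (2 of 6 tested fell). Mesoderm markers were between 34.9 and 40.5 CPM without and between 41.4 and 45.96 CPM with budesonide (1 of 3 tested rose), and Msgn1 had no read in the budesonide libraries. The risen one was Tcf15, at 21.3 ± 1.39 and 30.4 ± 2.72 CPM, without which the sum was not higher with budesonide. The part of these cell types in the results on the members was not tested. In such bulk samples fewer cells of a type and less RNA per cell cannot be told apart.

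Syndecans are transmembrane cores, and Sdc4 also sits in focal adhesions. Sdc4 was at 107.9, 96.3 and 118.2 CPM in the untreated libraries and at 240.6, 237.5 and 241.02 CPM in the budesonide libraries. The budesonide libraries all lay at about the same level, well above the untreated ones, and the log2 fold change was 1.16 ± 0.07 (SE; edgeR adjusted p = 2.64e-19). Sdc1, the epithelial syndecan, moved the other way, from 32.8, 30.4 and 28.1 CPM to 14.9, 12.2 and 13.1 CPM. Its groups did not overlap and its log2 fold change was -1.18 ± 0.13 (SE; edgeR adjusted p = 1.44e-10). Sdc3, the neural syndecan, was at 4.27, 4.92 and 4.24 CPM and then at 1.13, 2.94 and 2.39 CPM, a log2 fold change of -1.07 ± 0.32 (SE; edgeR adjusted p = 0.00774). Sdc3 entered the test through its untreated libraries, with 8, 20 and 13 reads in the budesonide ones. Its call was lost in DESeq2 (adjusted p = 0.0697) and without budesonide replicate 1 (0.104), and the adjusted p ran from 0.00288 to 0.104. Such ranges cover the 14 alternative fits that test for any change at the same threshold, and calls lost against a fold of 1.5 or at an adjusted p under 0.01 are not listed gene by gene. Sdc2 did not pass, at 4.88, 7.03 and 5.97 CPM without and 5.64, 3.83 and 5.699 CPM with budesonide. The 95% interval of its log2 difference, from -0.72 to 0.22, still holds changes of more than 1.5-fold downwards.

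Levels of different genes were compared per length, as CPM per kb of the longest GENCODE M21 transcript. On that scale Sdc4 had the highest level of the 67 members in both groups, 43.7 CPM per kb without and 97.5 CPM per kb with budesonide. With the mean transcript length, Sulf1 and Sulf2 lay above it in the untreated group and below it with budesonide. It made up 78.03% ± 2.57 of the summed syndecan level in untreated libraries and 94.1% ± 0.430 in budesonide libraries (SD, n = 3 each). The summed syndecan level was 55.9 ± 3.90 CPM per kb without and 103.6 ± 1.27 CPM per kb with budesonide (SD, n = 3 each), so the rise of Sdc4 outweighed the falls of Sdc1 and Sdc3. The log2 ratio of Sdc4 to Sdc1 reads does not depend on scaling between libraries; this and later gene pairs were picked with results known, and no test was made. It was 1.72, 1.67 and 2.07 in the untreated and 4.01, 4.28 and 4.21 in the budesonide libraries.

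Glypicans are held to the membrane by a lipid anchor and modulate WNT, Hedgehog, BMP and FGF signals. Gpc4 rose, from 25.2, 23.5 and 24.3 CPM to 43.96, 40.9 and 37.5 CPM (a log2 difference of 0.75 ± 0.10, SE; edgeR adjusted p = 7.42e-08). Every budesonide library was above every untreated one. Gpc6, of the same subfamily, had the largest fall of the glypicans, from 26.98, 27.7 and 23.3 CPM to 7.75, 5.89 and 6.802 CPM (-1.93 ± 0.15; edgeR adjusted p = 1.25e-14). Gpc1 went from 67.4, 71.6 and 64.4 CPM to 33.1, 31.8 and 36.8 CPM (-1.01 ± 0.09; edgeR adjusted p = 3.49e-13). Gpc3, the glypican mutated in an overgrowth syndrome, went from 16.01, 12.1 and 17.9 CPM to 8.73, 6.33 and 7.72 CPM (-1.0 ± 0.17; edgeR adjusted p = 8.68e-06). The groups did not overlap for any of these 4 glypicans. Gpc5 did not pass, with 5.79, 4.78 and 7.70 CPM in untreated and 8.88, 6.48 and 8.27 CPM in budesonide libraries. Its log2 difference of 0.38 has a 95% interval from -0.05 to 0.80, so neither no change nor a rise of 1.5-fold can be told from these libraries. Gpc2 averaged 1.69 and 1.74 CPM and did not pass either.

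**Figure D2:**
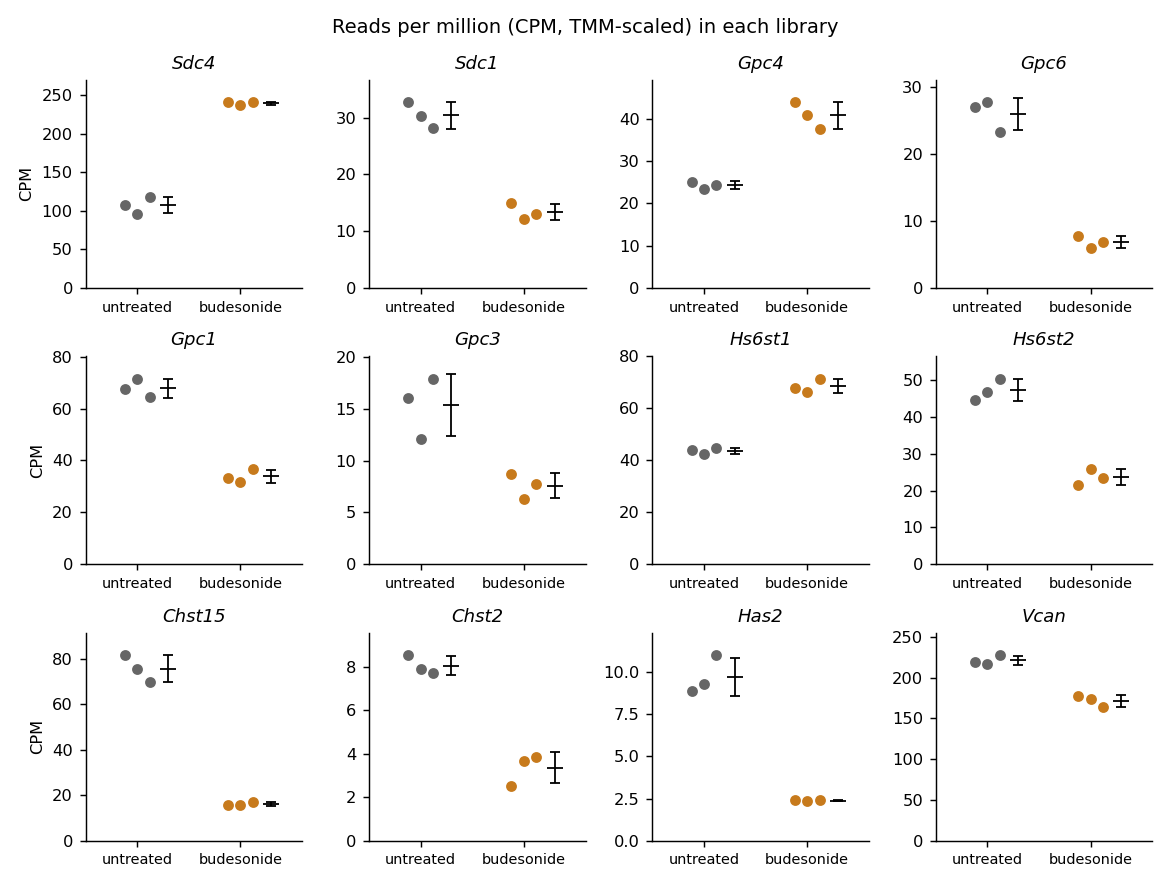
CPM of 12 members in each library (vertical axes, from 0), untreated in grey and budesonide in orange, with the mean and SD (n = 3) beside each group. In all 12 panels the groups do not overlap: Sdc4, Gpc4 and Hs6st1 are higher with budesonide and the other 9 are lower.

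The makeup of the glypicans changed with these shifts. Gpc4 made up 22.3% ± 0.347 of the summed glypican level per kb in untreated and 48.5% ± 3.38 in budesonide libraries (SD, n = 3 each). Gpc1 went from 39.5% ± 2.75 to 25.6% ± 2.26 and Gpc6 from 15.2% ± 1.54 to 5.16% ± 0.390. The summed level itself was 41.1 ± 0.809 CPM per kb without and 31.8 ± 1.98 CPM per kb with budesonide. With the mean instead of the longest transcript length Gpc4 went from 11.6% to 30.3%, and Gpc1 stayed the largest share with budesonide (49.1%). Gpc4 and Gpc3 are next to each other on the X chromosome in the RefSeq annotation of GRCm38.p6, with no protein-coding gene between them. The log2 ratio of Gpc4 to Gpc3 reads was 0.65, 0.96 and 0.44 in untreated and 2.33, 2.69 and 2.28 in budesonide libraries. The ratio of these neighbours was thus higher in every budesonide library than in any untreated one. Gpc5 and Gpc6 are neighbours likewise, and of these only Gpc6 passed the test; the difference between their changes was not tested.

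The bases just before the transcription start are shown for 2 cores that rose (Sdc4 and Gpc4) and 2 that fell (Sdc1 and Gpc3), because the members of each family moved in opposite directions. They are from RefSeq on GRCm38.p6, 250 bases each, 5′ to 3′ on the gene's strand, and capitals mark every match to the GC box GGGCGG on either strand. Sdc4 lies at chr2:164443189-164443438 on the minus strand, Sdc1 at chr12:8771146-8771395 on the plus strand, Gpc4 at chrX:52164924-52165173 and Gpc3 at chrX:52613975-52614224, both on the minus strand. The first 20 transcribed bases of the Sdc4 and Gpc3 entries were not found in a GENCODE M21 transcript of the gene, so these 2 starts rest on RefSeq alone.
Sdc4: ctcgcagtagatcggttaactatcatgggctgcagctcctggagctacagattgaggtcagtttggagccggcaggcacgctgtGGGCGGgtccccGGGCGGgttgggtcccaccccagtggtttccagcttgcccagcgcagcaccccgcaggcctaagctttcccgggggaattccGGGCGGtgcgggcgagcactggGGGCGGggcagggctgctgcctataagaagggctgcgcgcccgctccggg
Sdc1: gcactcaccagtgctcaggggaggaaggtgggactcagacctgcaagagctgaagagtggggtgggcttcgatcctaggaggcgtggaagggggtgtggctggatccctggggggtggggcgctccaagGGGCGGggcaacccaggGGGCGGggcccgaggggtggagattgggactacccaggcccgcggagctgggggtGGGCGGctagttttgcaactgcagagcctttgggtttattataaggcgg
Gpc4: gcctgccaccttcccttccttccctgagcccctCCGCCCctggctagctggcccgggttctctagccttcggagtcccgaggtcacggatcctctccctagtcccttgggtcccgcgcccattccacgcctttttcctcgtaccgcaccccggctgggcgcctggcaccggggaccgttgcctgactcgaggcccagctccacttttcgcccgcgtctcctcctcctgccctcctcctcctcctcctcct
Gpc3: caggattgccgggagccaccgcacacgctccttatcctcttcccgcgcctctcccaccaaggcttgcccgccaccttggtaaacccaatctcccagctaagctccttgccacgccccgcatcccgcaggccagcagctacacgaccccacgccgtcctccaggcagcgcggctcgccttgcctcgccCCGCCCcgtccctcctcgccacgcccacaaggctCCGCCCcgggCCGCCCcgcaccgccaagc

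The GC box, a sequence that SP and KLF factors bind, occurred 4 times in the Sdc4 window, 3 times each in those of Sdc1 and Gpc3 and once in that of Gpc4. RefSeq held a window for 51 of the 67 members, and 36 of them (70.6%) had a GC box, against 59.8% of 12021 tested genes with a window. A window was held for all 7 members that rose, 12 of 19 that fell and 25 of 30 that did not pass. Gpc1, Gpc6 and Has2, which fell, had none. Among members with a window, the GC box was found for 6 of 7 that rose, 11 of 12 that fell and 14 of 25 that did not pass. Median GC content differed alongside, at 67.2%, 65.6% and 61.2% in these groups and 58.8% over tested genes. The glucocorticoid receptor element (the consensus palindrome) and the TCF/LEF sequence CTTTGAT, both searched on either strand, matched in no member's window. They occur for 0.341% and 2.90% of tested genes with a window, so few matches would occur in any 51 such genes.

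Hyaluronan synthases make the unsulfated chain at the membrane, and Has2 is the main one of the early embryo. Has2 was at 8.84, 9.28 and 10.998 CPM in untreated and 2.40, 2.35 and 2.39 CPM in budesonide libraries. The budesonide libraries held 17, 16 and 13 reads, all below the untreated ones, and the log2 fold change was -2.02 ± 0.24 (SE; edgeR adjusted p = 2.24e-09). The overlapping antisense gene Has2os had 2 to 12 reads per library, and the strand setting of the counting is not given in the sources used here. Has3 did not pass, with 5.64, 5.76 and 3.93 CPM against 4.65, 3.53 and 5.15 CPM (log2 difference -0.22, 95% interval from -0.72 to 0.29). Has1 averaged 2.06 and 1.10 CPM and did not pass (edgeR adjusted p = 0.119), although its groups did not overlap. Per kb, Has2 went from 61.2% ± 5.93 to 34.9% ± 4.24 of the summed synthase level (SD, n = 3 each). Vcan encodes versican, the chondroitin sulfate proteoglycan that binds hyaluronan. It was at 219.05, 217.1 and 227.7 CPM without and 176.95, 173.2 and 163.4 CPM with budesonide, a fall of 1.29-fold with no overlap (edgeR adjusted p = 2.58e-06).

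The linkage enzymes attach the first sugars, which heparan and chondroitin sulfate share. Of 6 tested genes, Xylt1 was called lower and 5 did not pass, beside 13.5% lower and 15.2% higher of all tested genes. Xylt1, a xylosyltransferase that starts the linkage, fell from 13.3, 13.6 and 12.1 CPM to 8.31, 7.95 and 10.1 CPM (edgeR adjusted p = 0.00559), and its call was lost in DESeq2 (adjusted p = 0.0752; range over those fits 0.00174 to 0.0752). Its paralog Xylt2 was at 32.3, 25.6 and 30.5 CPM and at 26.1, 22.5 and 26.5 CPM (edgeR adjusted p = 0.119). It passed as lower when scaled by upper quartile (adjusted p = 0.0456) or left unscaled (0.0294), within a range from 0.0294 to 0.425. Xylt2 made up 85.5% ± 2.06 and 88.2% ± 0.937 of the summed xylosyltransferase level per kb. The log2 differences of the galactosyl- and glucuronosyltransferases B4galt7, B3galt6, B3gat1 and B3gat3 lay between -0.21 and 0.40 and none passed.

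Of the 5 genes of heparan sulfate polymerisation, 1 fell and 4 did not pass, where 13.5% of all tested genes fell and 15.2% rose. Ext1, whose product forms the copolymerase with that of Ext2, was at 66.6, 72.1 and 79.03 CPM and at 87.2, 81.8 and 77.95 CPM. These groups overlapped, and the log2 difference of 0.19 (95% interval from 0.03 to 0.34) did not pass (edgeR adjusted p = 0.0593). It passed as higher without untreated replicate 3 (adjusted p = 0.0168) and without budesonide replicate 3 (0.0348), within a range from 0.0168 to 0.292. Ext2 was at 31.6, 32.5 and 37.1 CPM and at 31.4, 29.9 and 33.6 CPM, with a 95% interval of the log2 difference from -0.30 to 0.11, which excludes a change of 1.5-fold. Extl3, which starts the heparan sulfate chain, fell from 47.1, 44.2 and 43.99 CPM to 37.9, 34.3 and 38.4 CPM (1.22-fold; edgeR adjusted p = 0.0124). That call was lost in DESeq2 (adjusted p = 0.124), without untreated replicate 1 (0.0615) and without budesonide replicate 2 (0.0959); the range was 0.00121 to 0.124. The summed level of the 5 Ext and Extl genes was 28.6 ± 1.63 and 27.7 ± 1.21 CPM per kb (SD, n = 3 each).

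Of the 5 enzymes that N-sulfate or epimerise the chain, 2 fell and 3 did not pass. Among all tested genes 13.5% fell and 15.2% rose. The gene of the 2-O-sulfotransferase, Hs2st1, was also called lower. Ndst1, the main N-deacetylase/N-sulfotransferase gene, was at 35.2, 36.1 and 35.04 CPM without and 26.2, 22.4 and 28.3 CPM with budesonide (a log2 difference of -0.48 ± 0.11, SE; edgeR adjusted p = 0.000412). Glce, which turns glucuronic into iduronic acid, went from 23.5, 25.2 and 27.7 CPM to 16.6, 16.8 and 18.2 CPM (-0.57 ± 0.12; edgeR adjusted p = 0.000257). Hs2st1 adds the 2-O-sulfate to that iduronic acid, and it went from 57.3, 52.3 and 59.4 CPM to 43.96, 37.7 and 40.1 CPM (-0.47 ± 0.09; edgeR adjusted p = 3.32e-05). All 3 genes had groups that did not overlap, with falls between 1.39-fold and 1.48-fold. Ndst2 was at 10.5, 13.1 and 9.90 CPM and at 8.31, 10.01 and 6.802 CPM and did not pass (edgeR adjusted p = 0.0841; range 0.0369 to 0.400). It passed as lower with no scaling factors (0.0369) and without budesonide replicate 2 (0.0402). Ndst3 and Ndst4 averaged between 1.68 and 2.58 CPM and did not pass, and the summed Ndst level was 9.06 ± 0.630 and 6.66 ± 0.211 CPM per kb.

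The 6-O-sulfotransferases Hs6st1 and Hs6st2 moved in opposite directions. Hs6st1 was at 43.9, 42.5 and 44.8 CPM in untreated and 67.9, 66.2 and 71.5 CPM in budesonide libraries, 1.57-fold higher (a log2 difference of 0.65 ± 0.08, SE; edgeR adjusted p = 9.06e-09). Hs6st2 was at 44.7, 46.8 and 50.4 CPM and then at 21.6, 25.9 and 23.3 CPM, 2.0-fold lower (-1.0 ± 0.10; edgeR adjusted p = 3.67e-11). Untreated libraries held nearly equal reads of both genes, with log2 ratios of Hs6st1 to Hs6st2 of -0.02, -0.14 and -0.17, and budesonide libraries had ratios of 1.66, 1.35 and 1.61. Per kb, Hs6st1 went from 49.9% ± 1.24 to 73.4% ± 0.863 of the family. The summed level of the family was 23.6 ± 0.628 CPM per kb without and 25.1 ± 0.694 CPM per kb with budesonide (SD, n = 3 each). With the mean transcript length this sum was slightly lower with budesonide, so its direction depends on the length used. Hs6st3 averaged 1.63 and 2.16 CPM and did not pass.

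**Figure D3:**
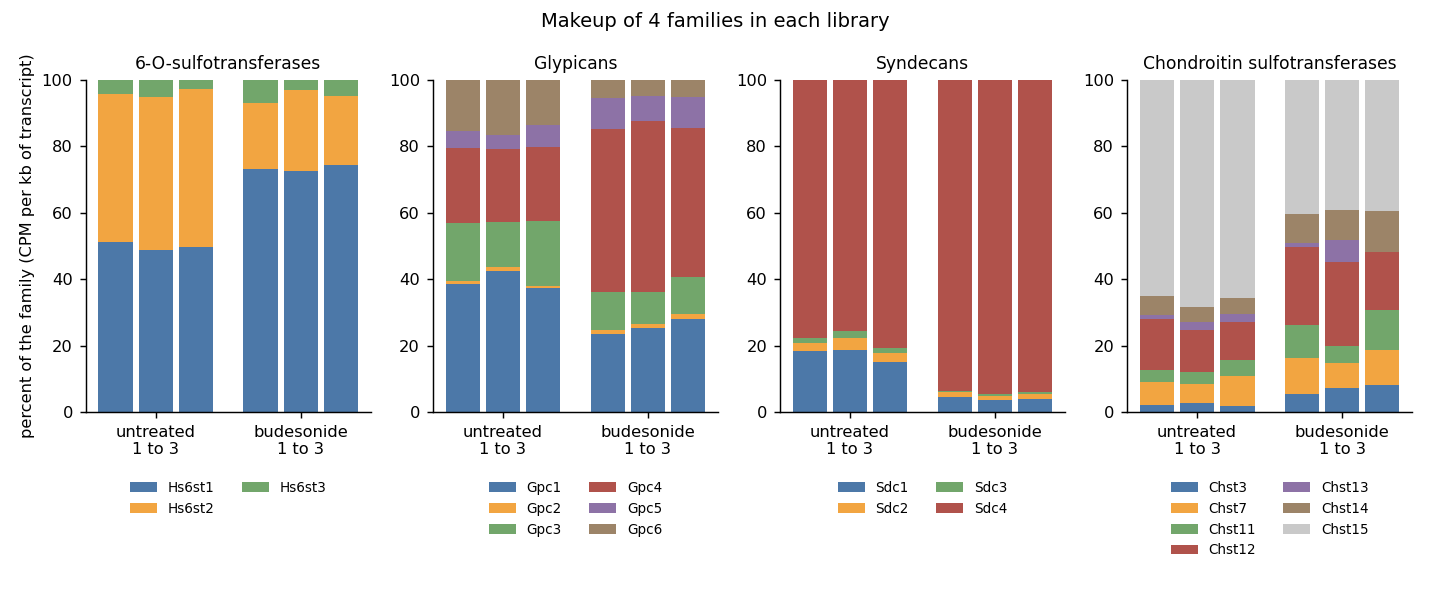
Percent of each family's summed level per kb (vertical axis) that each gene held, for 4 families, 1 bar per library. Hs6st1, Gpc4 and Sdc4 hold larger shares in all 3 budesonide libraries than in the untreated ones, and Chst15 a smaller one.

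The 3-O-sulfotransferases, which make rare sites such as that for antithrombin, were scarcely expressed. Of 7 genes, 5 had too few reads for a test. Hs3st5 was called higher on few reads, 6, 7 and 12 in untreated and 19, 24 and 10 in budesonide libraries, and entered the test through the budesonide group. On the CPM scale it was at 0.915, 0.984 and 1.89 and at 2.68, 3.53 and 1.84, so the groups overlapped (edgeR adjusted p = 0.0335). DESeq2 gave it no adjusted p. Its call was lost with no scaling factors (0.0506), with no filter on low counts (0.0803), without untreated replicate 1 (0.120) or 2 (0.129) and without budesonide replicate 1 (0.0815) or 2 (0.182); the range was 0.0175 to 0.182. Hs3st4 was at 6.40, 5.76 and 5.03 CPM and at 4.93, 3.68 and 4.78 CPM. These groups did not overlap, but the log2 difference of -0.36 did not pass (95% interval from -0.85 to 0.12).

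The extracellular endosulfatases remove 6-O-sulfate after the chain has reached the surface. Sulf1 was at 204.9, 198.7 and 208.3 CPM in untreated and 175.5, 164.97 and 166.7 CPM in budesonide libraries. The groups did not overlap, and Sulf1 fell 1.21-fold (edgeR adjusted p = 0.000358). Sulf2 was at 149.2, 156.5 and 162.9 CPM and at 156.9, 149.8 and 161.97 CPM, and the 95% interval of its log2 difference, from -0.13 to 0.12, excludes a change of 1.5-fold. Ncoa3, which overlaps Sulf2 on the opposite strand, had 1267 to 2580 reads per library against 881 to 1114 for Sulf2. With the strand setting unknown, it cannot be told how reads in the overlapping exons of these 2 genes were assigned. Per kb of the longest transcript, Sulf1 and Sulf2 were the next highest members after Sdc4 in both groups, at 36.4 and 34.1 CPM per kb without and 30.2 and 34.1 CPM per kb with budesonide.

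Of 7 tested enzymes of the chondroitin and dermatan sulfate chain, 2 rose, 1 fell and 4 did not pass. The shares among all tested genes were 15.2% risen and 13.5% fallen. Chsy1, a chondroitin polymerase, fell from 52.4, 61.7 and 58.8 CPM to 36.8, 37.5 and 37.5 CPM (a log2 difference of -0.63 ± 0.09, SE; edgeR adjusted p = 1.26e-07). Dse, the epimerase that turns chondroitin into dermatan sulfate, rose from 32.3, 30.1 and 35.7 CPM to 42.97, 43.6 and 43.02 CPM (0.40 ± 0.10; edgeR adjusted p = 0.000795). Neither gene's groups overlapped. Chpf2, a partner of the polymerase, was at 15.9, 17.6 and 13.5 CPM and at 18.7, 19.9 and 22.8 CPM and was called higher (edgeR adjusted p = 0.0300). It lost the call when scaled by upper quartile (0.0649) or left unscaled (0.0940), in DESeq2 (0.111), with no filter (0.0938), without untreated replicate 3 (0.155) and without budesonide replicate 3 (0.140); the range was 0.0189 to 0.155. Chpf did not pass, with 15.9, 15.2 and 11.3 CPM against 13.1, 10.7 and 16.7 CPM, and the 95% interval of its log2 difference ran from -0.40 to 0.24. Csgalnact1, Csgalnact2 and Dsel did not pass either, at log2 differences between -0.17 and 0.29.

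Chst15 encodes the sulfotransferase that adds a second sulfate to chondroitin and so makes the disulfated E unit. It had the largest fall of the members tested, from 81.7, 75.6 and 69.9 CPM to 15.6, 15.7 and 17.1 CPM (a log2 difference of -2.23 ± 0.10, SE; edgeR adjusted p = 5.42e-23). The lowest untreated library was more than 4-fold above the highest budesonide library. Per kb, Chst15 made up 66.3% ± 1.79 of the 7 chondroitin and dermatan Chst genes without and 39.7% ± 0.590 with budesonide, and their summed level went from 22.7 ± 1.99 to 8.08 ± 0.462 CPM per kb (SD, n = 3 each). Ust, which adds 2-O-sulfate to the same chains, moved the other way. It rose from 11.1, 10.7 and 11.2 CPM to 19.3, 18.1 and 16.2 CPM (0.71 ± 0.14; edgeR adjusted p = 0.000116), and its groups did not overlap.

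The remaining chondroitin sulfotransferases were at low levels. Chst12, a 4-O-sulfotransferase, was called lower, from 8.84, 6.47 and 5.66 CPM to 4.23, 4.71 and 3.49 CPM (edgeR adjusted p = 0.0139). Its call was lost in DESeq2 (0.107), without untreated replicate 1 (0.161) and without budesonide replicate 3 (0.0598), with a range from 0.00693 to 0.161. Chst7, a 6-O-sulfotransferase, was called lower from 3.81, 2.67 and 4.24 CPM to 1.83, 1.32 and 2.02 CPM (edgeR adjusted p = 0.0170). This call was lost in DESeq2 (0.114), without untreated replicate 1 (0.0572) or 3 (0.101) and without budesonide replicate 2 (0.0819), with a range from 0.0102 to 0.114. Both rest on fewer than 60 reads in any library. Chst7, with 13, 9 and 11 reads in the budesonide libraries, entered the test through its untreated ones. Chst11, another 4-O-sulfotransferase, was at 4.88, 4.499 and 5.50 CPM and at 4.23, 2.21 and 5.699 CPM and did not pass (95% interval of the log2 difference from -0.87 to 0.23). Chst3 and Chst14 did not pass either.

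Other Chst enzymes sulfate keratan sulfate, N-acetylglucosamine, N-acetylgalactosamine or the HNK-1 epitope. Chst2, an N-acetylglucosamine 6-O-sulfotransferase, fell from 8.54, 7.87 and 7.70 CPM to 2.54, 3.68 and 3.86 CPM (a log2 difference of -1.27 ± 0.23, SE; edgeR adjusted p = 2.68e-05). Every budesonide library was below every untreated one. Chst10, the HNK-1 sulfotransferase, was at 10.4, 11.8 and 11.3 CPM and at 14.1, 14.9 and 13.97 CPM. Although these groups did not overlap, the gene did not pass (edgeR adjusted p = 0.0685; 95% interval of the log2 difference from 0.06 to 0.66). Chst1 and Chst8 also lay higher in all budesonide libraries, at log2 differences of 0.57 and 0.49, and did not pass.

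**Figure D4:**
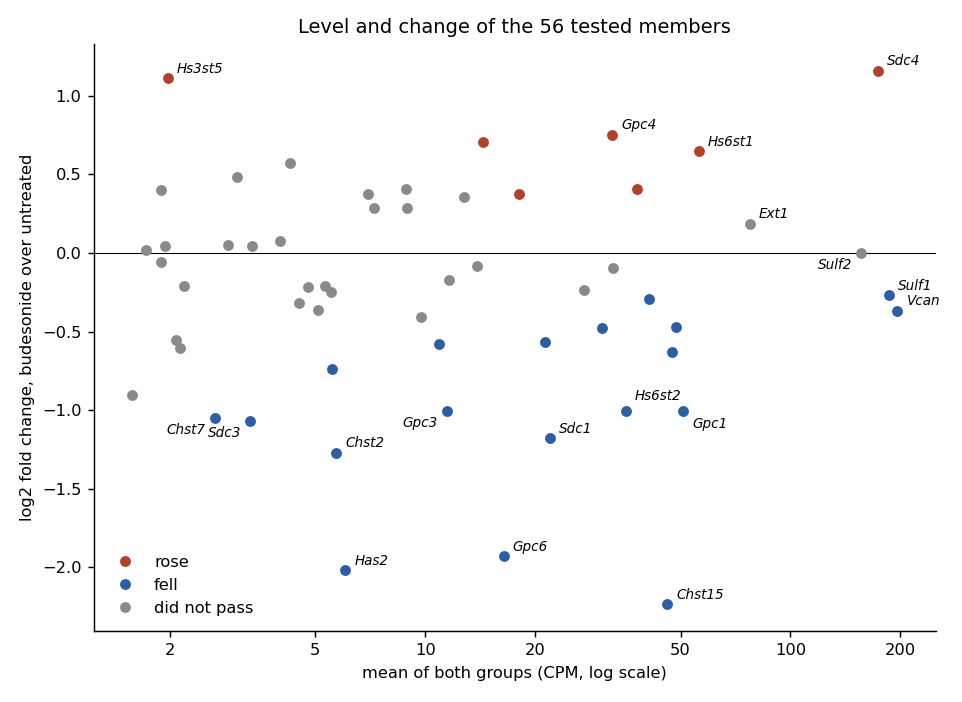
Log2 fold change (vertical axis) against the mean CPM of both groups (horizontal axis, log scale) for the 56 tested members, coloured by call. Members called lower span the range from Chst7 and Sdc3, at a few CPM, to Vcan and Sulf1, whereas Sdc4 is the only risen member above 100 CPM.

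The 11 members with too few reads for a test were B3gat2, Hs3st1, Hs3st2, Hs3st3a1, Hs3st3b1, Hs3st6, Chsy3, Chst4, Chst5, Chst9 and Chst13. None had more than 15 reads in any library, and changes of these genes were not detectable at this depth. Hs3st3a1 and Hs3st3b1 have near-identical catalytic domains, so their reads may be split between them.

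Genes of the same pathway outside the members were described from 3 lists. Of 17 tested genes that supply sulfate donor and sugar nucleotides, 2 rose and none fell (median log2 fold change 0.05). Over all tested genes 15.2% rose and 13.5% fell. Ugdh, which makes the glucuronic acid donor for these chains, rose from 29.7, 27.0 and 25.8 CPM to 48.3, 49.3 and 53.5 CPM (1.83-fold; edgeR adjusted p = 3.95e-10). Uap1, which makes the N-acetylglucosamine donor, rose 1.41-fold, from 24.9 ± 1.15 to 35.2 ± 2.33 CPM. Both had groups that did not overlap. Papss1, which makes the sulfate donor, was at 14.998 ± 1.31 and 15.6 ± 0.709 CPM (SD, n = 3 each) and did not pass.

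Of 15 other proteoglycan cores and link proteins tested, 1 rose and 4 fell (median -0.20), beside 15.2% and 13.5% of all tested genes. Tgfbr3, or betaglycan, a coreceptor for TGF-beta ligands, fell from 76.98, 66.8 and 67.6 CPM to 23.95, 24.7 and 22.6 CPM (2.95-fold; edgeR adjusted p = 1.70e-18). Its groups were far apart. Ncan, or neurocan, fell 1.89-fold, from 11.2 ± 1.90 to 5.87 ± 1.10 CPM. The hyaluronan receptor gene Cd44 fell 1.84-fold, from 6.07 ± 1.06 to 3.27 ± 0.524 CPM, but lost its call in DESeq2 (adjusted p = 0.0667) and without untreated replicate 2 (0.0505; range 0.00322 to 0.0667). Of the basement membrane cores, agrin (Agrn) rose 1.17-fold, from 151.6 ± 4.78 to 178.2 ± 8.34 CPM. Perlecan (Hspg2) was called lower, at 237.3 ± 12.2 and 205.9 ± 15.5 CPM, and lost the call in DESeq2 (0.0929), with limma (0.0564), without untreated replicate 1 (0.0647) and without budesonide replicate 2 (0.115; range 0.000149 to 0.115). Col18a1, the third of them, was at 478.5 ± 5.19 and 446.1 ± 37.5 CPM and did not pass.

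Of 20 tested genes of glycosaminoglycan breakdown, 6 were called higher and 1 lower (median 0.14), beside 15.2% and 13.5% of all tested genes. The list was drawn widely and holds Notum, which is no breakdown enzyme of these chains. Hexa, a lysosomal hexosaminidase gene whose product also degrades gangliosides, rose from 24.7 ± 2.96 to 45.96 ± 0.356 CPM (1.87-fold; edgeR adjusted p = 6.44e-10). Notum removes a lipid from WNT proteins and has been tied to glypican shedding. It rose 1.72-fold to 32.1 ± 2.81 CPM. The hyaluronidase gene Hyal2 was the member of the list that fell, from 11.7 ± 0.476 to 8.12 ± 0.560 CPM (edgeR adjusted p = 0.0155). It did not pass in DESeq2 (0.130), without untreated replicate 1 (0.0572) or without budesonide replicate 2 (0.0721; range 0.00498 to 0.130). Glb1, Hyal1 and Cemip2 were also called higher. Hyal1 lost its call in DESeq2 (0.0583) and without untreated replicate 2 (0.0583; range 0.00664 to 0.0583), and Cemip2, at a log2 fold change of 0.17, in 8 of those 14 fits (range 0.00176 to 0.281).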

How the data were processed

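RNA of 3 untreated and 3 budesonide-treated gastruloid samples was prepared with a TruSeq Stranded mRNA kit, according to the labels' protocols. Named in the submitters' processing notes are cutadapt 2.5, STAR 2.7.5c, featureCounts 2.0, DESeq2 and build GRCm39, without parameters, so reads of overlapping genes may be mixed. The authors deposited raw counts per gene symbol and a normalized signal, equal to the counts over a library-wide factor (largest deviation 0.0381 reads). Samples were grouped by title.

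Tests were run on the whole count table with edgeR 4.0.16 in R 4.3.3: filterByExpr (minimum count 10, minimum total 15), TMM, a robust quasi-likelihood model of group alone, and Benjamini-Hochberg adjusted p under 0.05 over 17155 genes. Standard errors and 95% intervals derive from the F statistic. CPM uses the TMM scale. Replicates of a group differed by 1.43 to 3.14 in chi-square per gene, above sampling noise. The test was also run on simulated counts with planted changes, drawn with the dispersions fitted to these data. That outcome is not reported here. Transcript lengths came from GENCODE M21 and upstream sequences from RefSeq (GRCm38.p6), both of an older build than the counts. Overlapping genes were found from GENCODE M21 exon coordinates and neighbours from the order of RefSeq protein-coding genes. No coordinates from the build of the counts were used.

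The members, roles and lists were chosen with earlier results of these data known. Values in every library are given for each called member past 2-fold, for up to 3 called members and the highest uncalled one in each role, and for 13 anchor genes. Pathway genes named are up to 3 risen and 3 fallen per list with the smallest adjusted p and at least 1 CPM, and others (Hspg2, Glb1, Hyal1, Cemip2, Papss1, Col18a1) were named after their values were seen. The alternatives were DESeq2 1.42.0, limma 3.58.1 on log2 of the deposited normalized values plus 1, RLE, upper quartile and no scaling, 2 other filters, the replicate number as a block, an adjusted p under 0.01, glmTreat at 1.5-fold and each library left out. 1 gene of the pathway lists is counted but not reported here.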

Additional observations from a re-analysis of the deposited data

How the results depend on the processing

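Of the 26 members called, 19 kept their call in every alternative fit at the same threshold, and the 7 that did not (Xylt1, Extl3, Hs3st5, Chpf2, Chst7, Chst12 and Sdc3) are named with their values above. No called member changed direction. Against a fold of 1.5 (glmTreat), 1 member rose and 7 fell, and 2 pathway genes rose and 1 fell. Over all 17155 tested genes 325 rose and 398 fell in that fit. The pathway genes that fell, 5 in the edgeR fit, were 8 with no scaling factors, 2 in DESeq2 and 3 to 7 when 1 library was left out (3 without untreated replicate 1 or budesonide replicate 2). Falls over all tested genes were 2316 in the edgeR fit, 3186 with no scaling factors and 1318 in DESeq2. They were 1888 to 2126 when 1 library was left out. With the replicate number as a block, 7 members rose and 19 fell, the same counts as without it. The labels give same-numbered libraries only a number in common. Their deviations from the group means correlated at 0.04, 0.06 and -0.02, and those of differently numbered libraries at between -0.07 and 0.03. With 3 libraries per group these values cannot decide whether libraries were paired. The mean transcript length moved family shares but not the direction of their change for Hs6st1, Gpc4, Sdc4 and Chst15. Of the 7, all but Xylt1 lost the call when some single library was left out; whether depth plays a part was not tested. The 11 members with at most 15 reads in any library could not be assessed at this depth.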
